A study of Mus musculus with 11 samples.

Results

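Hippocampal sections of mice without a tumour were compared after treatment with immune checkpoint inhibitors (CONTROL ICI, n = 3 sections) or with isotype antibodies (CONTROL, n = 3 sections). Segmented objects of these 6 sections counted as cells when their volume reached 100 µm3 and their transcripts numbered 10 or more. There were 120603 such cells, of 232117 in the 11 sections of the series, 36848 from CONTROL ICI and 83755 from CONTROL, out of 455938 segmented objects. All mice were adult male wild-type C57Bl/6 animals of 10 to 12 weeks that received no tumour cells. CONTROL mice were given isotype-matched antibodies intraperitoneally. CONTROL ICI mice were given anti-CTLA-4 at 1 mg per dose, 3 doses a week, and anti-PD-1 at 200 µg per dose, 2 doses a week, in a regimen whose length the labels give as 3 weeks. Brains were embedded whole and cut at 10 µm for MERFISH.

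CTLA-4 and PD-1 are receptors that restrain T cells, and antibodies that block them release this restraint, which is why they are used against tumours. Such treatment can cause inflammation in healthy tissue, the nervous system included, so mice without a tumour separate the treatment from the disease. The hippocampus has tightly packed, RNA-rich layers of neuron bodies between layers made mostly of fibres, so that cells of very different RNA content lie side by side. MERFISH reads single RNA molecules of a chosen probe panel in place, DAPI stains DNA, and a PolyT probe stains polyadenylated RNA of all genes together. The tables analysed hold a single transcript total for each object. Gene-level transcripts were not used here, so neither genes nor cell types can be named, and the tissue label could not be checked against marker genes.

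Cells of the treated sections held fewer detected transcripts for their size. The transcript density, in transcripts per 100 µm3 of cell, was lower in all 3 CONTROL ICI sections than in all 3 CONTROL sections from the lowest to the highest decile of the cells. Objects rich in transcripts were scarcer per area, and the largest cells showed the lowest ratio of treated to control density. Cell volume, DAPI and the median PolyT stain per volume did not separate the groups. The exact permutation tests of 3 against 3 sections cannot go below 0.1, so none could reach 0.05.

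Many differences between the sections did not follow the groups. The leading digits of the object identifiers place CONTROL 1, CONTROL ICI 1 and CONTROL ICI 2 in imaging run 1, CONTROL 2 in run 2, and CONTROL 3 and CONTROL ICI 3 in run 3. Each section held 16416 (CONTROL ICI 3) to 119207 (CONTROL ICI 1) objects, and no identifier occurred in more than 1 section. The assigned transcripts did separate the groups, without correction for area (0.328-fold). They numbered 633088, 1596885 and 3164943 in CONTROL 1, 2 and 3 and 566911, 568936 and 349960 in CONTROL ICI 1, 2 and 3. The filters kept 86.1% and 54.0% of objects in the run 3 sections but 11.7% to 32.2% in the other 4. The median ratio of a cell's volume to the area of its bounding box was 7.31 and 7.38 µm in run 3 and 1.58 to 2.18 µm in runs 1 and 2. Object size is therefore not comparable between runs. In run 1 the ratio was also higher in CONTROL ICI 2 (1.85 µm) than in CONTROL 1 (1.60 µm) and CONTROL ICI 1 (1.58 µm). The part of this in the density of CONTROL ICI 2 was not tested. The area with objects was 9.39, 11.5 and 22.9 mm2 in CONTROL 1, 2 and 3 and 12.98, 13.18 and 8.27 mm2 in CONTROL ICI 1, 2 and 3. The parts of the hippocampus and its surroundings that each section covers were not matched, and their part in the results below was not tested. A different mix of cells and less RNA per cell cannot be told apart here, and differences between sections in how completely transcripts were detected were not tested. The labels do not say which animal a section came from, so p-values measure only the spread between these sections. Values within runs are the mean of the run 1 difference (2 treated sections against 1 control) and the run 3 difference (1 against 1), and CONTROL 2 has no partner.

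Transcripts per cell were lower in the treated sections mostly at the upper end. The median cell held 21 (CONTROL 1), 30 (CONTROL 2) and 50 (CONTROL 3) transcripts in the controls, a mean of 33.7 ± 14.8 (SD, n = 3), against 17, 20 and 26 in CONTROL ICI 1, 2 and 3, a mean of 21.0 ± 4.58 (SD, n = 3). The median of CONTROL 1 thus lay between those of the treated sections, and the groups overlapped. At the 90th percentile the values were 80, 154 and 143 transcripts in the controls and 50, 65 and 74 in the treated sections, which do not overlap and differ 0.515-fold. At the 10th percentile they were 11, 12 and 16 against 10, 11 and 12, close to the minimum of 10 transcripts that defines a cell, so the lower end could hardly differ. The 99th percentile was 190, 390 and 277 in the controls and 132, 165 and 160 in the treated sections.

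Of 45 deciles over 5 measures (transcripts per cell, volume, and transcripts, DAPI and PolyT per volume), 10 had all CONTROL ICI sections below all CONTROL sections, 22.2% of the deciles compared. In 2 deciles all treated sections lay above, 4.44% of those compared. Neighbouring deciles of a measure come from the same cells and are not independent. Transcript density accounts for 9 of the 10 lower deciles and transcripts per cell for the other, and both higher deciles belong to PolyT.

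The shift of the whole distribution, taken as the mean over 9 deciles of the log2 section values, was -0.61 for transcripts per cell (CONTROL ICI minus CONTROL, 0.657-fold, two-sided exact permutation p = 0.2, adjusted p = 0.52 over 13 tests). Within runs it was -0.54 (exact permutation within runs, p = 0.333). CONTROL ICI 1 lay 0.37 below CONTROL 1 in log2 units and CONTROL ICI 3 lay 0.83 below CONTROL 3. CONTROL ICI 2 lay 0.13 below CONTROL 1 and 0.24 above CONTROL ICI 1, the other treated section of that run. Without CONTROL 3 the shift was -0.35, and in run 1 alone it was -0.25.

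The spread between poor and rich cells was also narrower. The 90th over the 10th percentile of transcripts per cell was 7.27, 12.8 and 8.94 in CONTROL 1, 2 and 3 and 5.00, 5.91 and 6.17 in CONTROL ICI 1, 2 and 3. All treated sections were below all controls, by 0.73 in log2 units (0.602-fold, exact permutation p = 0.1, the smallest that 3 against 3 sections allow, adjusted p = 0.433). Within runs the difference was -0.48 (exact permutation p = 0.167, the smallest possible there). The poorer 50% of cells held 19.5%, 13.9% and 20.5% of all cell transcripts in the controls and 24.4%, 21.7% and 22.8% in the treated sections. The fixed minimum of 10 transcripts takes part in these widths, since it holds the lower end in place. With all objects of at least 100 µm3 and 1 transcript the width differed by -0.18, and within runs by 0.25, in the opposite direction.

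**Figure D1:**
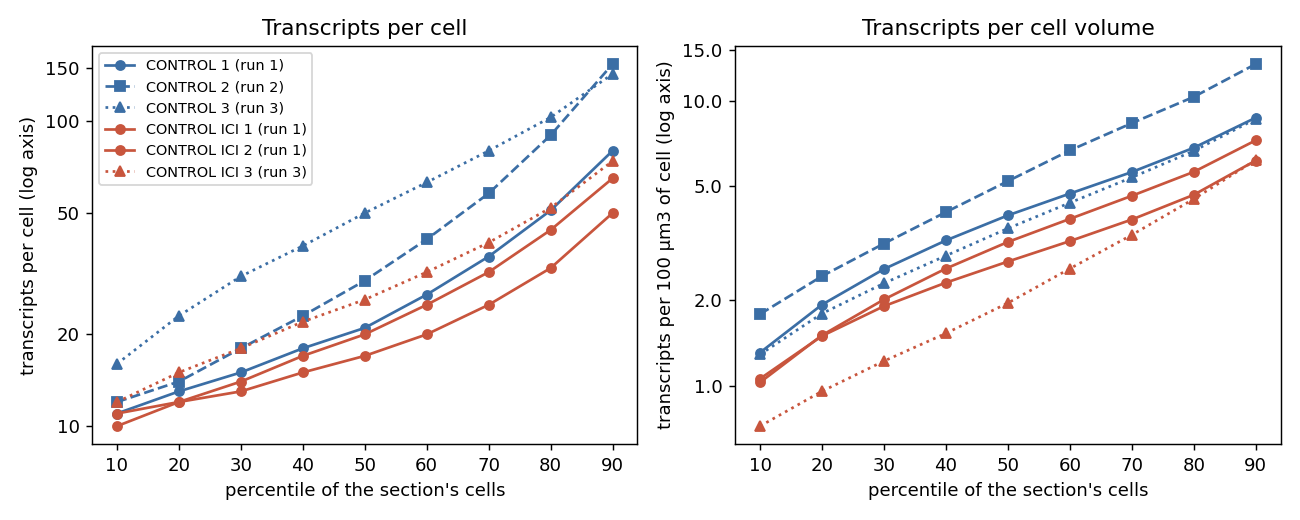
Deciles of transcripts per cell (left) and of transcripts per 100 µm3 of cell (right) in each section, both on log axes, with CONTROL in blue, CONTROL ICI in red and the marker and line style giving the imaging run. On the left the groups separate only at the 90th percentile (50 to 74 against 80 to 154 transcripts), and on the right the 3 red lines lie below the 3 blue lines at all 9 deciles.

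Set against cell size, the difference ran through the whole distribution. The median density was 3.96, 5.22 and 3.56 transcripts per 100 µm3 in CONTROL 1, 2 and 3, a mean of 4.25 ± 0.865 (SD, n = 3). It was 2.73, 3.20 and 1.95 in CONTROL ICI 1, 2 and 3, a mean of 2.63 ± 0.627 (SD, n = 3). The highest treated section lay below the lowest control section, CONTROL 3. At the 10th percentile the controls had 1.31, 1.79 and 1.29 and the treated sections 1.06, 1.03 and 0.723. At the 90th percentile the controls had 8.71, 13.4 and 8.62 and the treated sections 6.16, 7.25 and 6.18. The ratio of the groups changed little over the deciles, from 0.613 at the 60th to 0.650 at the 90th percentile. The ratios within runs went opposite ways. CONTROL ICI 1 had 0.810 times the density of CONTROL 1 at the 10th percentile and 0.708 times at the 90th. CONTROL ICI 2 had 0.786 and 0.833 times that of CONTROL 1, and CONTROL ICI 3 had 0.561 and 0.718 times that of CONTROL 3. Between the groups, the 1st and the 99th percentiles did not overlap either, at 0.644-fold and 0.666-fold.

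The density shift was -0.67 in log2 units (0.629-fold, exact permutation p = 0.1, the smallest possible, adjusted p = 0.433). Within runs it was -0.58 (0.669-fold, exact permutation p = 0.167, the smallest possible, adjusted p = 0.361). All 3 treated sections lay below the control of their own run at all 9 deciles. CONTROL ICI 1 had 0.681 to 0.810 times the density of CONTROL 1 over the deciles, CONTROL ICI 2 had 0.781 to 0.833 times that of CONTROL 1, and CONTROL ICI 3 had 0.534 to 0.718 times that of CONTROL 3. Both treated sections of run 1 differed from each other by 0.971 to 1.21 times. In run 1 alone the shift was -0.39. The width of the density distribution overlapped between groups, at 6.65, 7.52 and 6.68 for the 90th over the 10th percentile in the controls and 5.81, 7.04 and 8.55 in the treated sections (exact permutation p = 1).

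**Figure D2:**
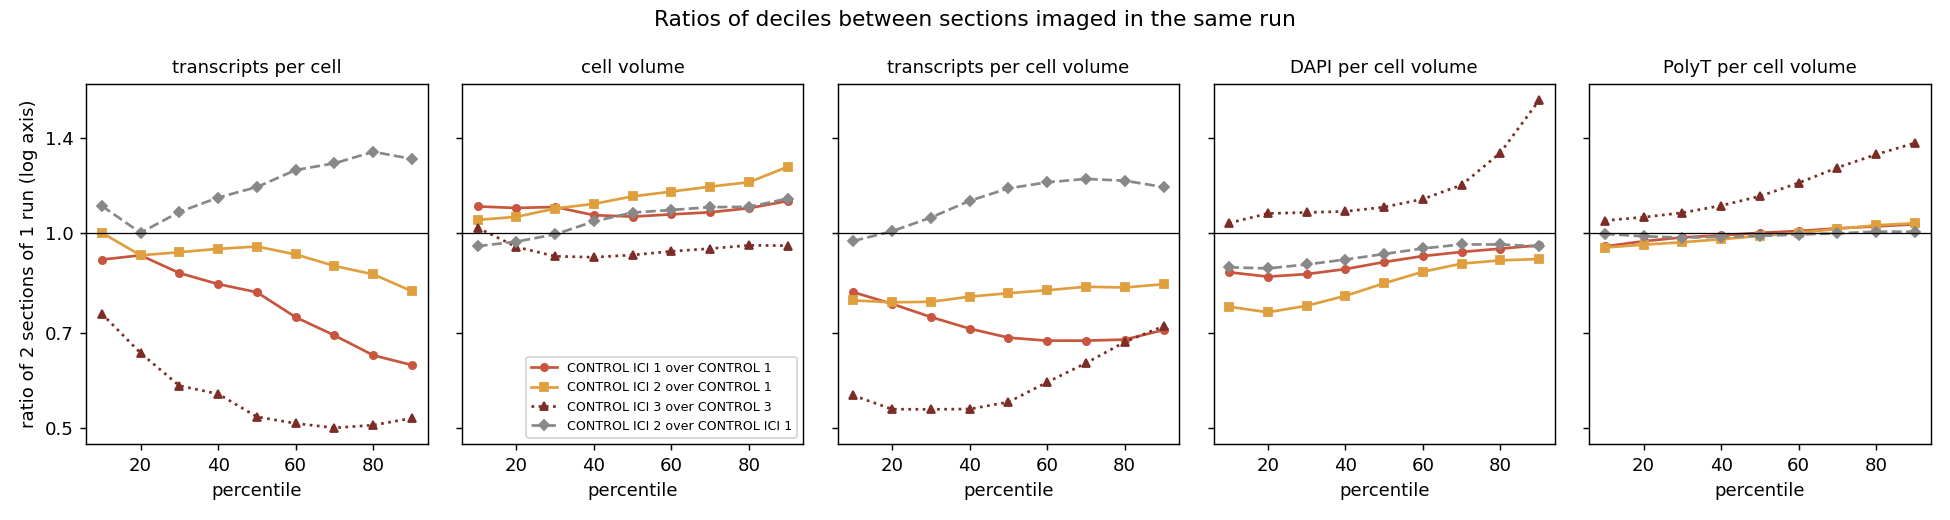
Ratio of each decile between 2 sections of the same imaging run, on a log axis, for the 5 measures, with the ratio of the 2 treated sections of run 1 in grey for scale. Transcripts per volume lie below 1 at all deciles for all 3 ratios of a treated to a control section, volume lies within 0.917 to 1.26, and the DAPI and PolyT ratios of run 3 climb to 1.60 and 1.38 at the 90th percentile.

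Transcript-rich objects were the scarcest in the treated sections. Objects of at least 100 µm3 with 200 or more transcripts numbered 114, 1405 and 1734 in CONTROL 1, 2 and 3 and 46, 83 and 39 in CONTROL ICI 1, 2 and 3. Per mm2 of area with objects this was 12.1, 122 and 75.9 in the controls and 3.54, 6.30 and 4.72 in the treated sections, so every treated section was below every control. The ratio of the groups was 0.0977-fold, or 0.156-fold within runs, and it rests on few sections: without CONTROL 1 it was 0.0490-fold and without CONTROL 2 it was 0.156-fold. The control sections themselves spanned a wide range, with CONTROL 1 lying far closer to CONTROL ICI 2 than to CONTROL 2.

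The gap widened as the required number of transcripts went up. Objects with at least 1 transcript overlapped between the groups (4525, 3892 and 2236 per mm2 in the controls, 4796, 3574 and 1704 in the treated sections, 0.905-fold). From 10 transcripts upward the groups did not overlap. At 10 or more the counts per mm2 were 1479, 2070 and 2017 against 1112, 1028 and 1072 (0.583-fold). At 50 or more they were 310, 705 and 1020 against 114, 170 and 231 (0.272-fold). At 100 or more they were 94.99, 376 and 429 against 24.1, 37.3 and 55.6 (0.148-fold, and 0.0917-fold without CONTROL 1). Any overall lowering of transcript totals moves objects past each fixed threshold, so these ratios are larger in size than the shift of the distribution and are not a separate measurement of it.

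**Figure D3:**
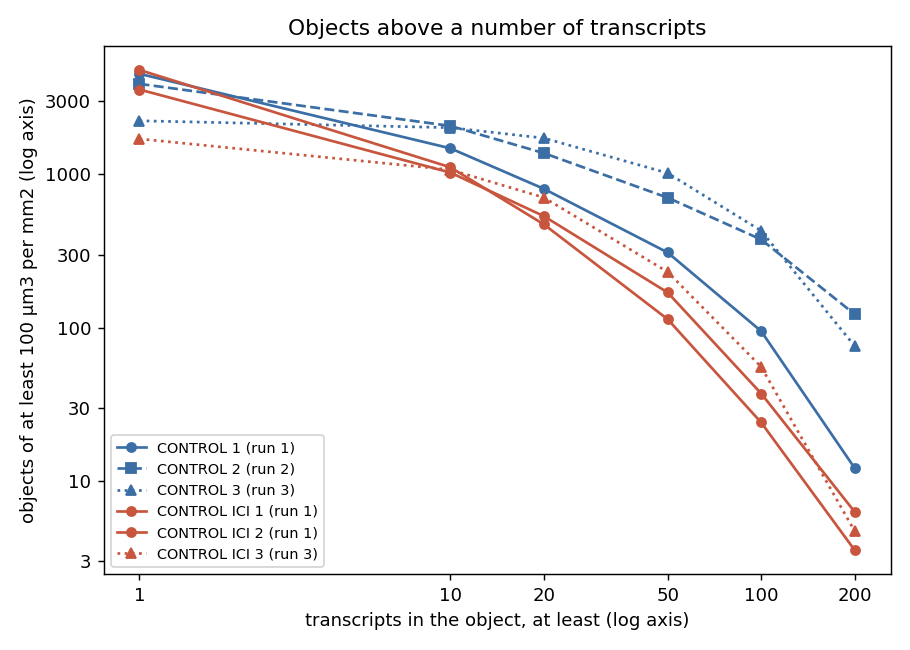
Objects of at least 100 µm3 per mm2 of section (log axis) that hold at least the number of transcripts on the log x axis, for each section, CONTROL in blue and CONTROL ICI in red. The lines are interleaved at 1 transcript and separate from 10 transcripts on, reaching 3.54 to 6.30 against 12.1 to 122 objects per mm2 at 200.

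Among cells sorted by volume, the largest showed the widest difference. In cells of 1600 µm3 or more, the median density was 3.29, 6.90 and 3.23 transcripts per 100 µm3 in CONTROL 1, 2 and 3 and 1.62, 1.56 and 1.24 in CONTROL ICI 1, 2 and 3 (0.350-fold, 0.431-fold within runs). These cells held a median of 69, 152 and 71 transcripts in the controls and 37, 40 and 27 in the treated sections, so neither quantity overlapped. They made up 13.3%, 15.7% and 50.4% of cells in the controls and 16.9%, 20.7% and 44.8% in the treated sections, so the class means a different part of the cells in run 3. In cells of 800 to 1600 µm3 the density was 3.01, 3.95 and 3.42 against 1.98, 2.38 and 2.49 (0.660-fold), again without overlap. In cells of 400 to 800 µm3 it was 3.42, 3.89 and 4.67 against 2.72, 3.16 and 3.79 (0.806-fold), and in those of 200 to 400 µm3 it was 5.26, 6.25 and 6.79 against 4.60, 4.94 and 5.825 (0.840-fold), both with overlap. Within each run every treated section was below its control in all 4 classes. Cells of 100 to 200 µm3 were not compared because CONTROL ICI 3 had only 22 of them. With the cells of each section divided into 5 equal parts by volume instead, the group ratio of the median density was 0.777 in the smallest cells, with overlap. It was 0.341 in the largest, without overlap.

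The gradient over volume was smaller without the transcript minimum. Objects with fewer than 10 transcripts are left out, which puts a floor under the density of small cells but hardly under that of large ones. Taken as summed transcripts over summed volume of the cells, the ratio of the groups went from 0.782-fold at 200 to 400 µm3 through 0.732-fold and 0.629-fold to 0.434-fold at 1600 µm3 or more. The same quantity over all objects, also those with 0 transcripts, was 0.467-fold at 200 to 400 µm3, 0.475-fold at 400 to 800, 0.446-fold at 800 to 1600 and 0.333-fold at 1600 µm3 or more. Both quantities overlapped between the groups under 800 µm3 and did not overlap from there on. In the largest objects the summed density was 2.82, 6.49 and 3.72 in the controls and 1.53, 1.39 and 1.18 in the treated sections. DAPI per volume was also lower there, without overlap (0.707-fold), and the part of DNA stain in the density difference was not tested. PolyT per volume overlapped (27.6 in both group means, in units of 10000 intensity per µm3), with CONTROL 2 lowest at 24.0. Against the control of its run it was lower in every treated section. The ratios were 0.932 (CONTROL ICI 1), 0.910 (CONTROL ICI 2) and 0.964 (CONTROL ICI 3).

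**Figure D4:**
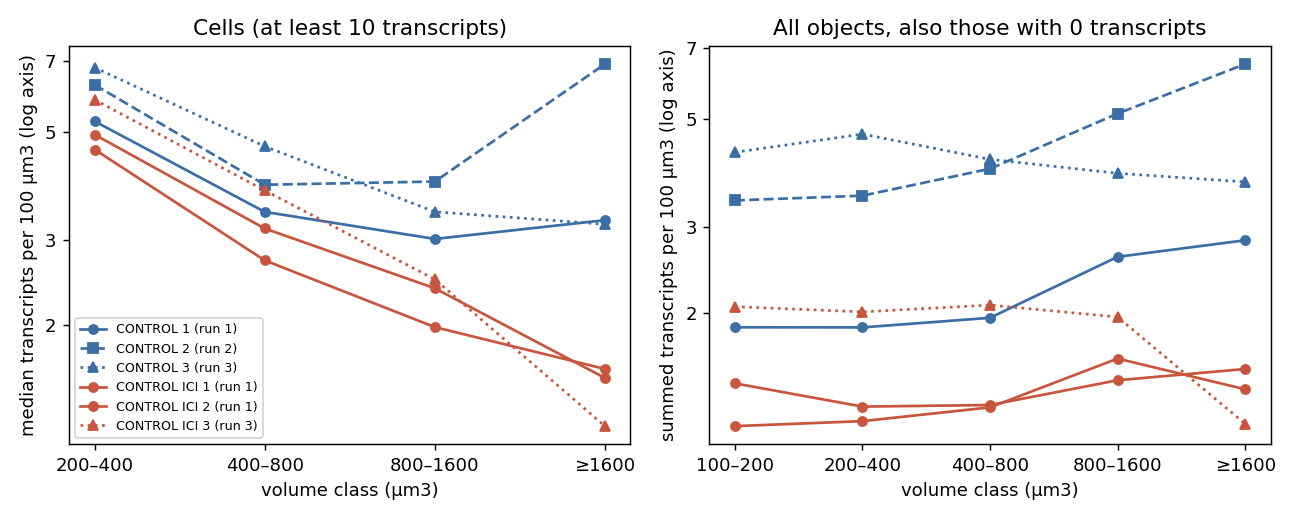
Transcripts per 100 µm3 by volume class on log axes, as the median over cells with at least 10 transcripts (left) and as summed transcripts over summed volume of all objects (right), with CONTROL in blue and CONTROL ICI in red. On the left the groups draw apart with volume, to 1.24 to 1.62 against 3.23 to 6.90 at 1600 µm3 or more, and on the right the treated sections are low in all classes relative to the control of their run.

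Cell volume gave no separation between the groups. The median was 744, 735 and 1608 µm3 in CONTROL 1, 2 and 3 and 788, 846 and 1486 µm3 in CONTROL ICI 1, 2 and 3, so the sections of run 3 stood together above all others whatever their treatment. All 9 deciles overlapped, with group ratios from 1.03 to 1.08. Treated cells were 1.05 to 1.26 times as large as control cells over the deciles in run 1, and 0.917 to 1.02 times in run 3. The shift was 0.07 in log2 units (exact permutation p = 0.6), and it turned to -0.11 without CONTROL 1 and to -0.21 without CONTROL ICI 3. In CONTROL ICI 2 both parts of the density moved, since transcripts per cell were 0.813 to 1.00 times and volumes 1.05 to 1.26 times those of CONTROL 1. In log2 units its difference from CONTROL 1 was -0.13 for transcripts per cell, 0.18 for volume and -0.31 for density.

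DNA stain per volume went opposite ways in the 2 runs. The median DAPI intensity per µm3, in units of 10000, was 54.6, 55.3 and 41.5 in CONTROL 1, 2 and 3 and 49.2, 45.7 and 45.4 in CONTROL ICI 1, 2 and 3, and all 9 deciles overlapped. In run 1 both treated sections were below CONTROL 1 at all 9 deciles, at 0.856 to 0.956 and 0.754 to 0.911 times its values. In run 3 the treated section was above CONTROL 3 at all 9, rising from 1.04 times at the 10th to 1.60 times at the 90th percentile. The shift was -0.04 (exact permutation p = 0.8) and 0.01 within runs. Small cells with at least 10 transcripts were brighter for DNA in CONTROL ICI 3 than in CONTROL 3. In cells of 200 to 400 µm3 its median was 50.003 against 18.2 (192 against 1423 cells). In those of 400 to 800 µm3 it was 64.3 against 25.2 (1106 against 5129 cells). Of objects of 200 to 400 µm3, 21.3% reached 10 transcripts in CONTROL ICI 3 and 52.9% in CONTROL 3. In run 1 the same classes stood at 45.7 and 44.6 against 52.6, and at 49.4 and 45.3 against 53.8. Over all objects of these classes, whatever their transcripts, the contrast in run 3 was small, at 19.98 against 17.8 and 24.3 against 23.3.

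PolyT, the stain of polyadenylated RNA, was not lower in treated sections although the transcript density was. The median PolyT intensity per µm3, in units of 10000, was 30.9, 21.5 and 29.4 in the controls and 30.9, 30.5 and 33.45 in the treated sections. CONTROL 2, alone in its run, was lowest at all 9 deciles and yet had the highest transcript density. All treated sections were above all controls at the 70th and 80th percentiles. At the 80th these were 34.3, 26.5 and 34.9 against 35.1, 35.2 and 46.1, with CONTROL ICI 1 hardly above CONTROL 3. The shift was 0.24 (exact permutation p = 0.3), fell to 0.08 without CONTROL 2, and was 0.11 within runs. In run 1 the ratios to CONTROL 1 stayed within 0.949 to 1.03, and in run 3 they went from 1.04 to 1.38.

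Transcript density was lower in treated sections at every rank of PolyT stain. Cells of each section were divided into 5 equal parts by PolyT per volume, and the median density of every part was lower in all treated sections than in all controls. In the palest cells it was 1.71, 2.26 and 1.88 transcripts per 100 µm3 in the controls and 1.44, 1.33 and 1.04 in the treated sections (0.649-fold). In the brightest cells it was 6.26, 10.98 and 6.29 against 3.41, 4.78 and 4.22 (0.542-fold). The ratios of the 3 parts between were 0.688, 0.662 and 0.596. Divided by DAPI per volume instead, the density did not overlap in the 2 palest parts (0.543-fold and 0.507-fold) and overlapped in the 3 others (0.525-fold, 0.660-fold and 0.840-fold). The brightest cells by DAPI were the most alike, with 3.057, 4.399 and 4.003 in the controls and 2.60, 3.11 and 3.95 in the treated sections. Transcripts per cell, not set against volume, overlapped between the groups in all 5 parts by PolyT. The parts are ranks within a section, so they match cells by order and not by stain intensity.

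A few of the correlations between measures of a cell did not overlap between the groups. Over the 8865 to 46099 cells of a section, Spearman's rank correlation of DAPI with PolyT per volume was 0.42, 0.48 and 0.59 in CONTROL 1, 2 and 3 and 0.62, 0.69 and 0.73 in CONTROL ICI 1, 2 and 3. Both stains are divided by the same volume. The correlation of volume with transcript density was -0.41, -0.20 and -0.18 in the controls and -0.60, -0.57 and -0.53 in the treated sections. Volume is the denominator of the density, and the minimum of 10 transcripts removes small cells of low density, so part of this relation is set by construction. These were 2 of 10 pairs of measures, and the other 8 overlapped between the groups. They describe cells that share a section, and no p-value is given.

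Most 100 µm squares of the treated sections lay below the middle square of the control of their run, and their density was uneven in CONTROL ICI 3. In squares of 100 µm with at least 10 cells (580, 979 and 1865 squares in CONTROL 1, 2 and 3 and 635, 601 and 333 in CONTROL ICI 1, 2 and 3), the median density of cells was taken for each square. The middle square stood at 3.99, 4.83 and 3.47 transcripts per 100 µm3 in the controls and at 2.84, 3.22 and 1.52 in the treated sections (0.592-fold). Squares of at least 5 transcripts per 100 µm3 made up 25.5%, 48.1% and 20.4% of the control squares and 3.15%, 7.82% and 7.51% of the treated ones. Of the treated squares, 86.8% in CONTROL ICI 1 and 69.4% in CONTROL ICI 2 were below the middle square of CONTROL 1, and 82.0% in CONTROL ICI 3 were below that of CONTROL 3. By definition, 50% of the squares of each of these control sections lie below it. Squares were not matched between sections.

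The poorest squares did not separate the groups. The 10th percentile of squares was 1.98, 2.25 and 1.61 in the controls and 1.82, 1.65 and 0.932 in the treated sections, with CONTROL 3 below CONTROL ICI 1 and 2. Squares under 2 transcripts per 100 µm3 came to 10.5%, 5.62% and 19.3% in the controls and 15.6%, 19.1% and 61.9% in the treated sections. The high share belongs to CONTROL ICI 3, and without it the group ratio of 2.53 was 1.65. The top 10% of squares began at 5.92, 9.07 and 6.00 in the controls and at 4.19, 4.91 and 4.54 in the treated sections, without overlap (0.662-fold, 0.761-fold within runs). Curved bands of dense squares can be seen in every section.

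**Figure D5:**
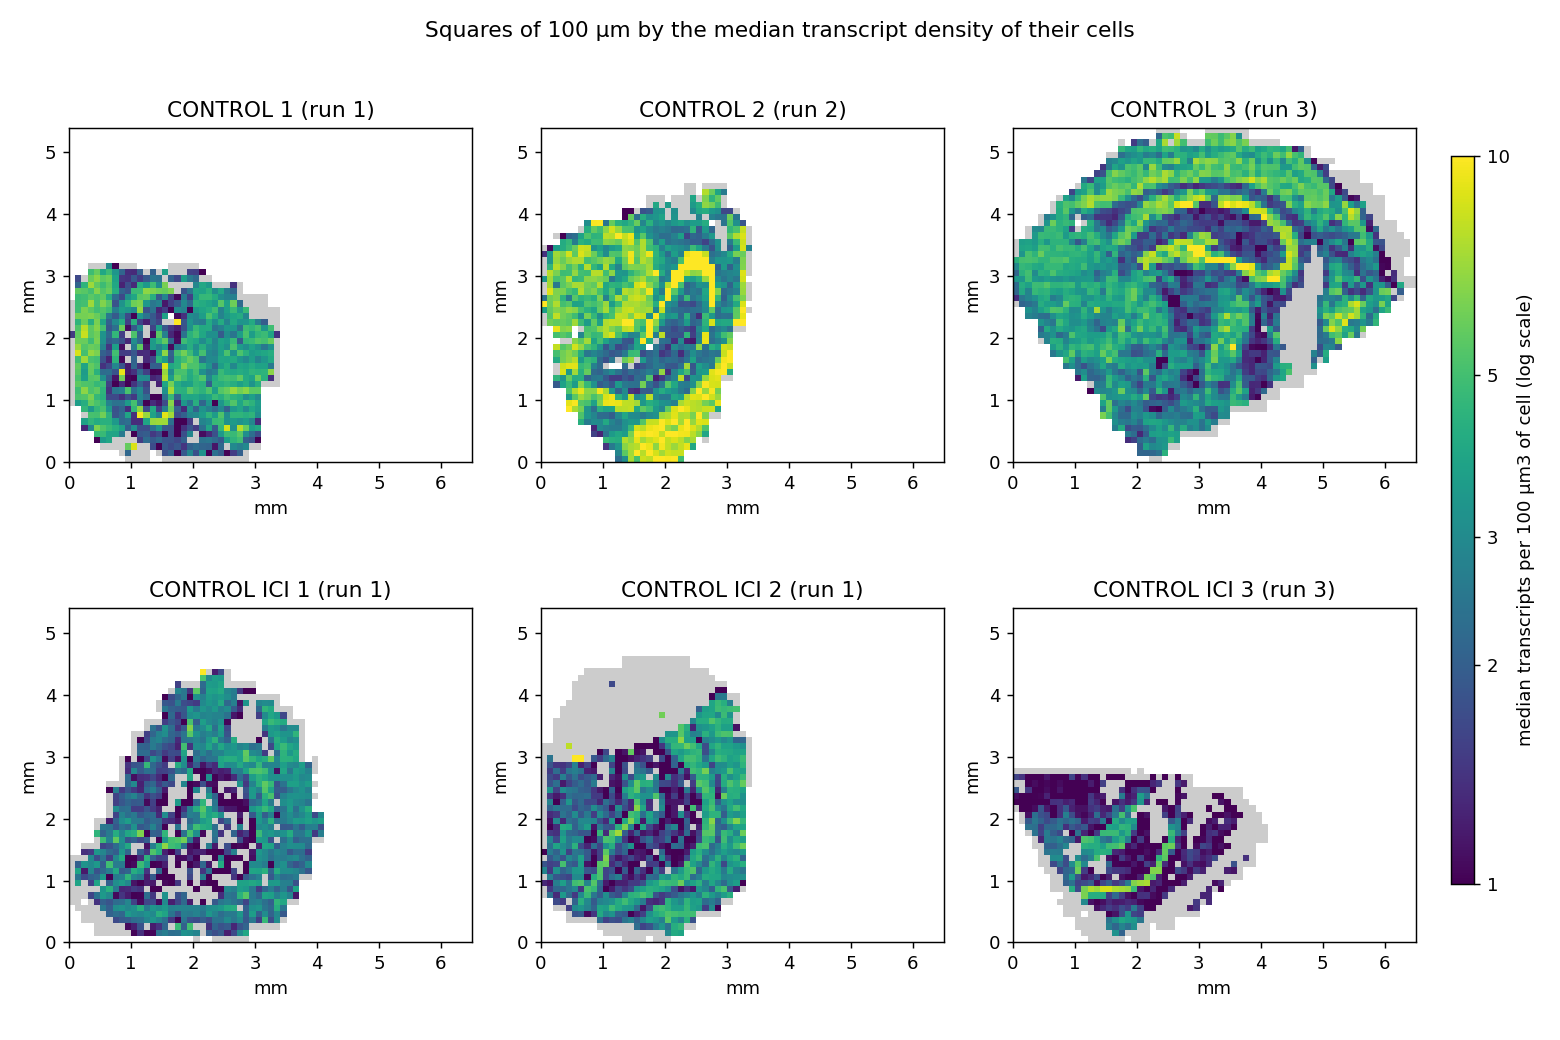
Each section in squares of 100 µm, coloured by the median transcripts per 100 µm3 of the cells in the square (log scale clipped at 1 and 10), with axes in mm and in grey the squares that hold fewer than 3 cells. CONTROL 3 covers 22.9 mm2 and CONTROL ICI 3 covers 8.27 mm2, CONTROL ICI 2 has a wide grey area at its upper end, and the outlines and orientation of the tissue differ from section to section.

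CONTROL ICI 2 had a large area almost without signal. Where a square held 10 or more objects, it was counted as nearly silent if its transcripts stayed under 10% of those in the middle square of the section. Such squares came to 288 of 1318 squares (21.9%) there against 2.30% to 5.01% in the other 5 sections. Only 3 cells of CONTROL ICI 2 lay in them. They therefore bear on counts per area and on the share of objects kept, but not on the distributions over cells. The density shift without nearly silent squares was -0.67, as with them.

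Cells were also fewer per area in the treated sections. In squares with at least 1 cell there were 1604, 2133 and 2214 cells per mm2 in CONTROL 1, 2 and 3 and 1216, 1384 and 1434 in CONTROL ICI 1, 2 and 3, without overlap (0.683-fold, exact permutation p = 0.1, the smallest possible, adjusted p = 0.433, and 0.724-fold within runs). A cell here is an object with at least 10 transcripts, so a lower density removes objects from this count. With the volume minimum alone and at least 1 transcript the difference was -0.09 in log2 units (exact permutation p = 0.9), against -0.55 with both minimums. Objects without any transcript made up 30.9%, 21.0% and 4.32% of the controls and 35.5%, 49.8% and 14.0% of the treated sections. All assigned transcripts, in cells or not, came to 67422, 139101 and 138449 per mm2 of area with objects in the controls and to 43676, 43167 and 42317 in the treated sections (0.395-fold, 0.444-fold within runs). The total of CONTROL ICI 2 includes its nearly silent squares. Without such squares the totals were 70859, 142493 and 142066 per mm2 in the controls and 45271, 55031 and 43298 in the treated sections (0.422-fold).

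The number of cells in a section and the share of objects kept as cells overlapped between the groups. The number differed by -1.04 in log2 units (exact permutation p = 0.2), by -0.60 without CONTROL 3, and by 0.01 in run 1 alone, where CONTROL 1 had 13889 cells and the treated sections 14436 and 13547. The share kept was 17.9%, 32.2% and 86.1% in the controls and 12.1%, 11.7% and 54.0% in the treated sections (exact permutation p = 0.5). Its difference of -0.90 ranged from -0.28 without CONTROL 3 to -1.62 without CONTROL ICI 3, and was -1.42 without CONTROL 1, -0.55 without CONTROL ICI 1 and -0.52 without CONTROL ICI 2. Within each run the treated sections had the lower share, at 0.677 and 0.656 times that of CONTROL 1 and 0.627 times that of CONTROL 3.

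Of the 13 tests, 0 passed 0.05 after Benjamini-Hochberg adjustment and 0 before it, since 20 arrangements of 3 against 3 sections allow no exact permutation p below 0.1. The width of transcripts per cell, the density shift and cells per mm2 reached that smallest value. Within runs, where 6 arrangements allow no p below 0.167, the same 3 results and the share of objects kept and the widths of DAPI and PolyT per volume reached it. Without nearly silent squares the share kept did not reach it, at -0.53 in log2 units (exact permutation within runs, p = 0.333).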

How the data were processed

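Each section has a deposited table with 1 line per object segmented by the authors from MERFISH images. Software, segmentation settings and probes were not given in the sources used here. Per the file headers, transcript values are raw counts summed over the probe panel, and nothing states a normalization. DAPI and PolyT are deposited intensity sums per object in arbitrary units, which can differ between runs. Anisotropy, a deposited ratio, and solidity, a deposited score, were used only to describe runs. No unit is stated for volumes and positions; µm3 and µm were assumed from the bounding boxes.

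Cells were objects that reached 100 µm3 and 10 transcripts. Counting error was not estimated. Sections held 349960 or more transcripts in total, but the median cell of a section held only 17 to 50. Each section gave 1 value per measure: the mean of the log2 of 9 deciles (shift) or the log2 of the 90th over the 10th percentile (width). Group differences were tested by exact permutation of the 6 section labels, two-sided, with Benjamini-Hochberg adjustment over 13 tests, also within imaging runs, which were read from the first 4 digits of the object identifiers. Area counts squares of 100 µm that hold an object or, for cells per mm2, a cell. Python 3.11.15, numpy 2.4.6, pandas 2.3.3, scipy 1.17.1 and matplotlib 3.10.9 were used, and the tests were first tried on simulated data. The sections, measures and alternatives were chosen with earlier results of these data known.

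Groups share replicate numbers. Deviations of same-numbered sections from their group means over 45 deciles correlated at 0.76, 0.79 and 0.86. Those of differently numbered sections correlated at -0.88 to 0.46. The values come from the same deciles that were compared, so they cannot show that the sections are paired, and sections of number 2 lie in different runs. The numbers were used as pairs only in the replicate block among the alternatives. The tables hold no genes, so no gene or marker was tested, and the 5 sections of mice with a tumour were not used.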

Additional observations from a re-analysis of the deposited data

How the results depend on the processing

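The 13 results were recomputed under other filters (the share kept not without filters), run strata, volume ranges, the edge and silent squares left out, replicate pairs and each section left out, the 10 shifts and widths also with ventiles and the 4 stain results with high-pass stain columns, 273 values in all, of which 234 kept their direction and 39 turned. The volume filter only also asks for 1 transcript. Run strata combined with another filter or volume range, or with silent squares left out, were chosen after seeing the data. The shifts of transcripts per cell (-1.18 to -0.21) and of density (-0.99 to -0.29), the share kept (-1.999 to -0.20) and cells per mm2 (-1.004 to -0.09) kept their direction throughout. With the replicate block the log2 differences are by construction those of the plain comparison (-0.61 for the transcripts shift). They are counted among the values that kept their direction although they could not turn. The smallest sign-flip p is 0.25, so no call could change. The stricter filter (200 µm3, 50 transcripts) gave shifts of -0.33 for transcripts and -0.53 for density.

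The width of transcripts per cell turned to 0.25 with run strata and the volume filter only. The volume shift turned to -0.024 without filters, to -0.12 with the volume filter only and to -0.083 with that filter in run strata. The volume width turned to -0.23 without filters, to -0.047 with the volume filter only, to -0.012 with the stricter filter, to -0.0067 with volumes of 200 to 2000 µm3, to -0.0056 with ventiles and to -0.026 with those volumes in run strata. The density width turned to -0.065 with the stricter filter, -0.16 with those volumes, -0.055 in run 1 and -0.14 outside run 3. The DAPI shift turned to 0.11 with the stricter filter (0.22 in run strata), 0.058 with those volumes (0.12 in run strata), 0.013 without the edge, 0.0081 in run strata and 0.0083 in run strata without silent squares. The DAPI width turned to -0.048 outside run 3. The PolyT shift turned to -0.0094 in run 1, and the PolyT width to -0.16 with high-pass stain columns and -0.051 outside run 3. The number of cells turned to 0.0099 in run 1. Leaving out 1 section at a time gave -0.21 to 0.43 for the volume shift, -0.28 to 0.38 for its width, -0.12 to 0.16 for the density width, -0.16 to 0.037 for the DAPI shift, -0.093 to 0.34 for its width and -0.055 to 0.18 for the PolyT width. The cause of these turns was not tested.

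The exact permutation test allows no p under 0.1 with these sections, 1 control had no partner in its run, tissue areas were not matched between sections, and object volumes differed by run. Objects under 10 transcripts, 45.8% to 81.6% of those large enough in the treated sections and 13.6% to 72.0% in the controls, enter only where stated, and a cell close to that minimum says little of its density.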
